A study of Homo sapiens with 12 samples.

Results

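Paneth cells at the base of the intestinal crypt release granules of antimicrobial proteins into the gut lumen, and 6 genes for such products were followed here: LYZ, DEFA5, DEFA6, PLA2G2A, REG3A and ITLN2. They were chosen by name, with earlier results of these data known. All 6 were present in the count table of 60671 genes. The cells were LS180, an established human colorectal cancer line. Its derivatives carried a doxycycline-inducible construct for V5-tagged wild-type SOX9, for V5-tagged M303, a shortened SOX9, or for GFP. The groups were the SOX9, M303 and GFP lines after 24 h in 0.5 µg/ml doxycycline and the same 3 lines without it, with 2 libraries each and 12 in all. All groups share the LS180 background, each construct sits in its own derivative, and a construct and the line that carries it therefore cannot be told apart in comparisons between lines. The labels do not say whether the 2 libraries of a group are separate cultures, and the p-values then reflect no more than the spread between these libraries, which may be technical.

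Lysozyme, the product of LYZ, cuts bacterial cell wall peptidoglycan, and PLA2G2A is a secreted phospholipase that attacks bacterial membranes. DEFA5 and DEFA6 are the alpha-defensins of human Paneth cells: DEFA5 kills bacteria directly, whereas DEFA6 assembles into nets that trap them. REG3A is a C-type lectin that kills Gram-positive bacteria, and ITLN2 is an intelectin, a lectin family that binds microbial sugars. SOX9 is a transcription factor that mouse intestine needs in order to form Paneth cells, and WNT signalling through TCF factors supports the same fate.

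The RefSeq promoter table (GRCh38.p14) matched 3 of the 6 genes, and the 250 bases before a start site are shown for these because the genes differed from each other in the libraries: PLA2G2A was called higher after SOX9 induction, while REG3A and ITLN2 were at or near a count of 0. PLA2G2A has 3 start sites in the table, and the window before the one farthest upstream is given. Capitals mark matches to the searched motifs, and all 3 genes lie on the minus strand, so the letters read 5′ to 3′ on that strand.

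PLA2G2A, chr1:19980435-19980684, minus strand: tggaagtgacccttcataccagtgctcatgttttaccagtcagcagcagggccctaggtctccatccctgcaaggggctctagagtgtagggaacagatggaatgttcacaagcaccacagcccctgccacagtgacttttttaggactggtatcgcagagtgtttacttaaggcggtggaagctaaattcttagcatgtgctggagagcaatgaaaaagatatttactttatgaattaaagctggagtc
REG3A, chr2:79159754-79160003, minus strand: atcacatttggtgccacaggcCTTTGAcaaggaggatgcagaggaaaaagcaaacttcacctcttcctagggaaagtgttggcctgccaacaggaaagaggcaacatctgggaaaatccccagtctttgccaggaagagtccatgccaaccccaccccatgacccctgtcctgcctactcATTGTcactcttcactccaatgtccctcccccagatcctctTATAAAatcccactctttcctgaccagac
ITLN2, chr1:160954810-160955059, minus strand: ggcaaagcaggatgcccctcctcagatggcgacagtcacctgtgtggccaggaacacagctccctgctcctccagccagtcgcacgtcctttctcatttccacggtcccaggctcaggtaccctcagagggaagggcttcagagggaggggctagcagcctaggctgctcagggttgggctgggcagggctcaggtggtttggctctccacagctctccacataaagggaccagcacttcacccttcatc

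The 300 bases around each start site were searched on both strands for ACAAT and ACAATGG (forms of the SOX core), CTTTGA (a TCF core), TATAAA (the TATA box) and TTTATNG (a CDX form). ACAATGG contains ACAAT, so their matches can overlap. The capitals in the REG3A window are CTTTGA, a reverse-strand ACAAT (read as ATTGT) and TATAAA. No motif matched in any of the 3 PLA2G2A windows or in the ITLN2 window. Among 35116 promoter windows of the same length, 27.4% held ACAAT, 3.16% ACAATGG, 12.9% CTTTGA, 11.5% TATAAA and 9.73% TTTATNG. A match is a string of letters and is not evidence of binding.

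The libraries held 31012775 to 48529770 counts each. Each mate of a read pair was counted on its own, so the totals are of mates. The counts were scaled to library size (CPM) with TMM library factors and tested with edgeR's quasi-likelihood test over 18219 genes. Every adjusted p given is from that test with Benjamini-Hochberg adjustment, and a gene was called where it was under 0.05. The TMM factors ran from 0.981 to 1.02. Over all genes the median log2 fold change of SOX9 induction was 0.01 after this scaling, which is built to bring the centre near 0. All 7 colorectal epithelium markers were counted in every library. They summed to 8892 to 8914 CPM in induced SOX9 libraries and 9124 to 10496 CPM in uninduced ones of that line. The keratins KRT8 and KRT18 made up most of this sum, with means of 5359 and 1588 CPM in the induced SOX9 libraries. The sum therefore says little about the other markers, and 3 of the 7 were called lower, as given below. In bulk libraries, more cells that express a gene and more RNA per cell cannot be told apart.

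SOX9 itself was read first as a check of the labels. It had 712 and 761 CPM in the SOX9 line with doxycycline, against 357 and 381 CPM without. The M303 line had 818 and 867 CPM with doxycycline, against 399 and 367 CPM without, and the GFP line had 405 and 371 CPM with, against 399 and 392 CPM without. Both SOX9 constructs thus read about equally high: the log2 fold change of SOX9 induction minus that of M303 induction was -0.14, with a 95% CI from -0.36 to 0.07 (adjusted p = 0.891). Construct and endogenous transcripts enter 1 count, so the labels of the GFP line and the form of SOX9 made are not checked by it.

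Inducing wild-type SOX9 raised LYZ, DEFA5, DEFA6 and PLA2G2A, all 4 of the 6 genes with enough counts to test. LYZ rose 11.3-fold, DEFA6 13.9-fold, DEFA5 54.8-fold and PLA2G2A 1.91-fold in mean CPM. The other 2 were not detectable at a testable level in any group: REG3A had a count of 0 throughout and ITLN2 at most 4 counts in a library. Of all genes tested, 1.81% were called higher and 1.16% lower in this comparison, 2.97% together, and 23.2% had both induced libraries above both uninduced ones.

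LYZ, which lies at GRCh38 chr12:69348381-69354234 on the plus strand (ENSG00000090382), had 590 and 579 CPM in SOX9 cells with doxycycline, against 56.7 and 46.9 CPM in SOX9 cells without. Those first 2 libraries hold 29082 and 18420 LYZ counts, against 2118 and 1667 in the uninduced pair. The groups are far apart, while the libraries inside each group lie close together. Mean LYZ was 584 ± 7.99 CPM with doxycycline and 51.8 ± 6.90 CPM without (SD, n = 2 each). The log2 fold change was 3.50 (SE 0.10, 95% CI 3.29 to 3.70, adjusted p = 2.89e-15), and LYZ had the smallest p of the 18219 genes. By fold it stood 12th among the 330 genes called higher.

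DEFA5 (ENSG00000164816, GRCh38 chr8:7055304-7056739, minus strand) had 34.2 and 36.9 CPM in SOX9 cells with doxycycline, against 1.02 and 0.282 CPM in SOX9 cells without. In counts these are 1687 and 1176 in the induced libraries, against 38 and 10 in the uninduced ones. The gene was close to silent in the uninduced pair, and its 2 low values differ from each other more than the 2 high ones do. The log2 fold change was 5.75 (SE 0.54, 95% CI 4.55 to 6.96, adjusted p = 1.59e-04), the third highest among the genes called higher.

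DEFA6 (ENSG00000164822, GRCh38 chr8:6924697-6926076, minus strand) is of similar size: its gene model has 465 bases of exon, against 454 for DEFA5. It had 20.8 and 21.6 CPM in SOX9 cells with doxycycline, against 1.12 and 1.91 CPM in SOX9 cells without. The groups did not overlap, and the log2 fold change was 3.80 (SE 0.35, 95% CI 3.06 to 4.54, adjusted p = 1.28e-06), the seventh highest of those called higher. The 2 alpha-defensins are related in sequence, and reads that map to several places were not counted, so reads they share may be missing from both.

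PLA2G2A (ENSG00000188257, GRCh38 chr1:19975431-19980416, minus strand) was already well expressed without doxycycline. It had 203 and 199 CPM in SOX9 cells with doxycycline, against 112 and 98.1 CPM in SOX9 cells without. The groups did not overlap, and the log2 fold change was 0.93 (SE 0.09, 95% CI 0.75 to 1.12, adjusted p = 6.72e-07). Its rank by fold among the genes called higher was 90, against 12 or better for the other 3.

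REG3A (ENSG00000172016, GRCh38 chr2:79157003-79159753, minus strand) had 0 counts in each of the 12 libraries. A count of 0 allows up to 3 counts, which is 0.0618 to 0.0967 CPM depending on the library. ITLN2 (ENSG00000158764, GRCh38 chr1:160945025-160954809, minus strand) had counts in 4 libraries. They were 4 counts in SOX9 with doxycycline (replicate 1), 2 in uninduced M303 (replicate 1), and 2 and 4 in uninduced GFP. These levels lie at or near the limit that a count of 0 allows, and no fold change is given for either lectin. Such limits cover counting error only, and mates of a pair are not independent counts.

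**Figure D1:**
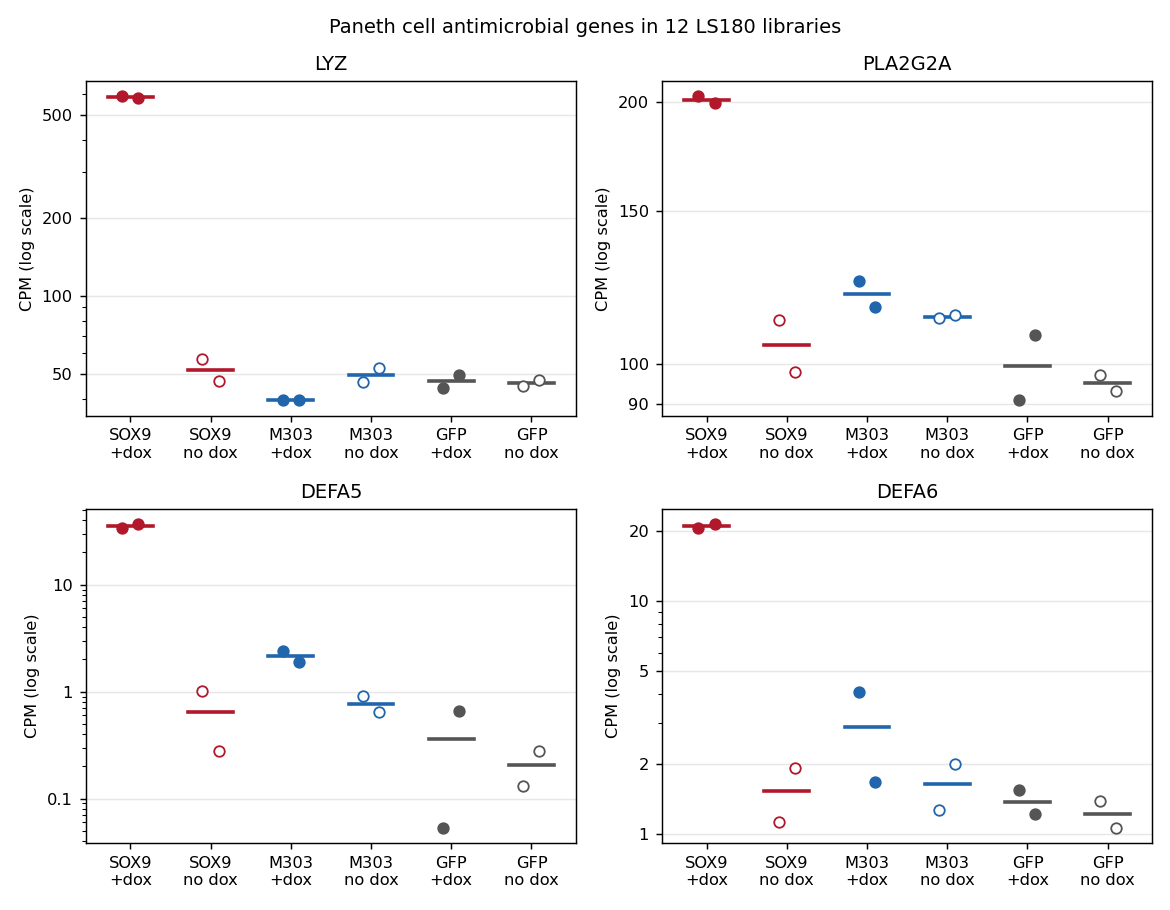
CPM (log scale) of the 4 tested genes in each of the 12 LS180 libraries, filled points with and open points without doxycycline, and a bar at each group mean. In every panel both induced SOX9 libraries lie above the other 10, with LYZ at 590 and 579 CPM against 39.3 to 56.7 CPM elsewhere.

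The shortened form M303 raised the SOX9 count 2.20-fold (adjusted p = 2.84e-08), where wild-type SOX9 raised it 2.00-fold (adjusted p = 4.11e-08), and 0 of the 4 tested genes were called after its induction. Of all genes tested 0.00549% were called, which is SOX9 itself. At an unadjusted p under 0.05 there were 3 of the 4, LYZ lower and DEFA5 and DEFA6 higher, as against 662 of 18219 genes, and 1 of the 4 without replicate 1 of uninduced M303 or of induced M303. LYZ had 39.7 and 39.3 CPM in M303 cells with doxycycline, against 46.5 and 52.3 CPM in M303 cells without, and these were the 2 lowest LYZ values of the 12 libraries. The log2 fold change was -0.32 (95% CI -0.52 to -0.13, unadjusted p = 0.00239 and adjusted p = 1.00 by edgeR). Its direction is opposite to the response to wild-type SOX9.

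Both alpha-defensins had positive log2 fold changes with M303, without a call. DEFA5 had 2.41 and 1.90 CPM in M303 cells with doxycycline, against 0.903 and 0.640 CPM in M303 cells without, and these pairs did not overlap. Its log2 fold change was 1.49 (95% CI 0.23 to 2.76, edgeR adjusted p = 1.00). Among all genes, 17.1% had both induced M303 libraries above both uninduced ones, and 16.8% had both below. DEFA6 had 4.07 and 1.67 CPM with doxycycline, against 1.26 and 2.00 CPM without, so the groups overlap (log2 fold change 0.82, 95% CI 0.08 to 1.56). Its log2 fold change was 0.023 without replicate 1 and 1.31 without replicate 2 of induced M303, and 0.54 without replicate 1 of uninduced M303. PLA2G2A had 124 and 116 CPM in M303 cells with doxycycline, against 113 and 114 CPM without, a log2 fold change of 0.09 (95% CI -0.10 to 0.27).

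Doxycycline in the GFP line is the control for the drug. There 0 of the 4 genes and 0% of all genes were called. At an unadjusted p under 0.05 there were also 0 of the 4, as against 580 of 18219 genes. LYZ had 43.9 and 49.3 CPM in GFP cells with doxycycline, against 44.6 and 47.4 CPM without (log2 fold change 0.02, 95% CI -0.17 to 0.21). PLA2G2A had 90.9 and 108 CPM with doxycycline, against 97.3 and 93.1 CPM without. DEFA6 had 1.53 and 1.21 CPM with doxycycline, against 1.38 and 1.05 CPM without. The groups overlapped for all 3. DEFA5 was at the edge of detection, with 2 and 24 counts in GFP cells with doxycycline, against 4 and 10 without, and its log2 fold change of 0.74 had a 95% CI of -1.44 to 2.91.

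**Figure D2:**
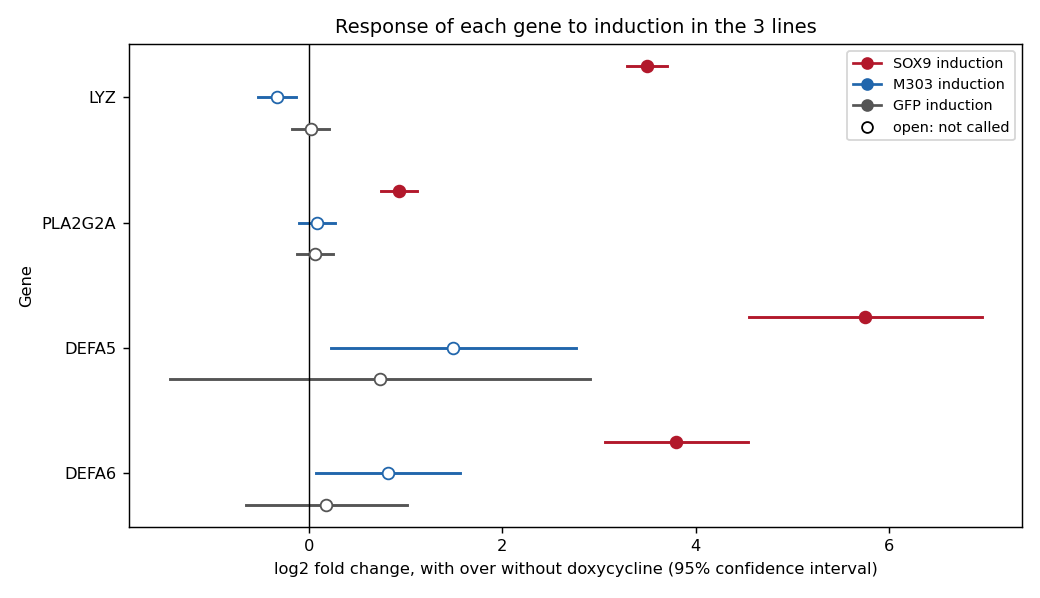
Log2 fold change of LYZ, PLA2G2A, DEFA5 and DEFA6 with over without doxycycline in the SOX9, M303 and GFP lines, with 95% confidence intervals and open points where a gene was not called. All 4 points of the SOX9 line are called, from 0.93 for PLA2G2A to 5.75 for DEFA5, and no point of the M303 or GFP lines is.

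The responses themselves were compared as interaction terms. LYZ, DEFA6 and PLA2G2A responded more to SOX9 than to M303, and DEFA5 did not pass the threshold. That is 3 of the 4 genes, where 0.357% of all genes were called higher and 0.489% in either direction. The difference of log2 fold changes was 3.82 for LYZ (95% CI 3.54 to 4.10, adjusted p = 1.94e-13), 2.98 for DEFA6 (95% CI 1.94 to 4.02, adjusted p = 0.00403) and 0.85 for PLA2G2A (95% CI 0.59 to 1.11, adjusted p = 8.84e-04). For DEFA5 it was 4.26 (95% CI 2.44 to 6.08, adjusted p = 0.0711), and the gene was called without either induced GFP library (adjusted p = 4.13e-05 without replicate 1 and 3.87e-05 without replicate 2) or without uninduced SOX9 replicate 1 (0.0152). With 1 library left out the difference was 3.63 to 5.47. Over all alternatives this adjusted p ran from 4.70e-12 to 0.614. The DEFA6 call was lost without replicate 2 of uninduced M303, where its difference was 2.60 (adjusted p = 0.0608, the highest of its 19 alternatives).

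Against the GFP line the same 3 genes were called, where 0.631% of all genes were called higher and 0.895% in either direction. This comparison uses the same 4 SOX9 libraries and is not a separate test of them. The difference was 3.48 for LYZ (95% CI 3.20 to 3.75, adjusted p = 1.12e-12), 3.62 for DEFA6 (95% CI 2.51 to 4.72, adjusted p = 7.55e-04) and 0.87 for PLA2G2A (95% CI 0.61 to 1.13, adjusted p = 4.15e-04). DEFA5 had a difference of 5.02 with a wide interval (95% CI 2.08 to 7.95, adjusted p = 0.188). Its 2 and 24 counts in the induced GFP libraries are the widest ratio within a group of any of the 4 genes, and the gene was called without either of them (difference 4.11, adjusted p = 0.00935 without replicate 1; 7.68, adjusted p = 2.06e-04 without replicate 2; in a range of 4.20e-07 to 0.800 over all alternatives). Between M303 and GFP induction 0 of the 4 were called, as against 0.00549% of all genes. The nearest was LYZ, with a difference of -0.34 (95% CI -0.62 to -0.07, unadjusted p = 0.0168, as for 717 genes under 0.05, edgeR adjusted p = 0.992).

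Before induction, the lines differed in these genes by less than the test could call. Against the GFP line, 0 of 4 genes were called in the SOX9 line, where 0% of all genes were, and 0 of 4 in the M303 line, where 0.00549% were. At an unadjusted p under 0.05 there were 0 in the SOX9 line, as against 866 of 18219 genes, and 1, PLA2G2A, in the M303 line, as against 1110 genes. DEFA5 had 1.02 and 0.282 CPM in the uninduced SOX9 line and 0.903 and 0.640 CPM in the uninduced M303 line, against 0.132 and 0.277 CPM in the uninduced GFP line. These give log2 differences of 1.63 (95% CI -0.31 to 3.57) and 1.85 (95% CI -0.05 to 3.75), and intervals this wide leave several-fold differences possible. PLA2G2A had a log2 difference of 0.25 between M303 and GFP cells (95% CI 0.07 to 0.44, edgeR adjusted p = 0.799).

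Ordered by mean level, the induced SOX9 libraries came first for each of the 4 genes. For LYZ the rest followed as uninduced SOX9 at 51.8, uninduced M303 at 49.4, induced GFP at 46.6, uninduced GFP at 46.0 and induced M303 at 39.5 CPM. Neighbours from uninduced SOX9 to uninduced GFP overlap in their libraries, and induced M303 lies just below them. For DEFA5 induced M303 came next at 2.15 CPM, then uninduced M303 at 0.771, uninduced SOX9 at 0.649, induced GFP at 0.357 and uninduced GFP at 0.204 CPM, and from uninduced M303 downward each pair of neighbours overlaps. For DEFA6 the same order held, at 2.87, 1.63, 1.52, 1.37 and 1.22 CPM, and all these neighbours overlap. For PLA2G2A it also went to induced M303, at 120 CPM, ahead of uninduced M303 at 113, uninduced SOX9 at 105, induced GFP at 99.5 and uninduced GFP at 95.2 CPM. Its 2 M303 groups and uninduced SOX9 do not overlap as neighbours but nearly touch (112 CPM in uninduced SOX9 replicate 1, 113 CPM in uninduced M303 replicate 1), while induced GFP overlaps with both uninduced SOX9 and uninduced GFP. Uninduced SOX9 and uninduced GFP do not overlap, by 98.1 to 97.3 CPM in their nearest libraries.

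Levels of different genes were compared per length of exon. This length is that of the gene model and may differ from the transcripts expressed, so shares and ranks between genes are approximate. On this scale of CPM per kilobase the mix of the 4 products was another one in induced SOX9 cells. LYZ made up 58.7% and 57.7% of the summed level in the induced SOX9 libraries, against 20.7% to 32.1% in the other 10 libraries. PLA2G2A made up 20.7% and 20.3% in the induced SOX9 libraries, against 64.0% to 69.3% in the others. DEFA5 supplied 12.9% and 14.0% in the induced SOX9 libraries, against 0.141% to 4.79% elsewhere. PLA2G2A thus led in every library but those of induced SOX9, where LYZ did.

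DEFA5 and DEFA6 also stood in another order, which was not tested. The ratio of their levels per kilobase, DEFA5 over DEFA6, was 1.69 and 1.76 in SOX9 cells with doxycycline, against 0.927 and 0.151 in SOX9 cells without. It was 0.607 and 1.17 in M303 cells with doxycycline, against 0.732 and 0.328 without. Where both genes had at least 10 counts, every other library but one induced M303 library was below 1. The ratios of the low libraries rest on few DEFA5 counts, from 10 upward.

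**Figure D3:**
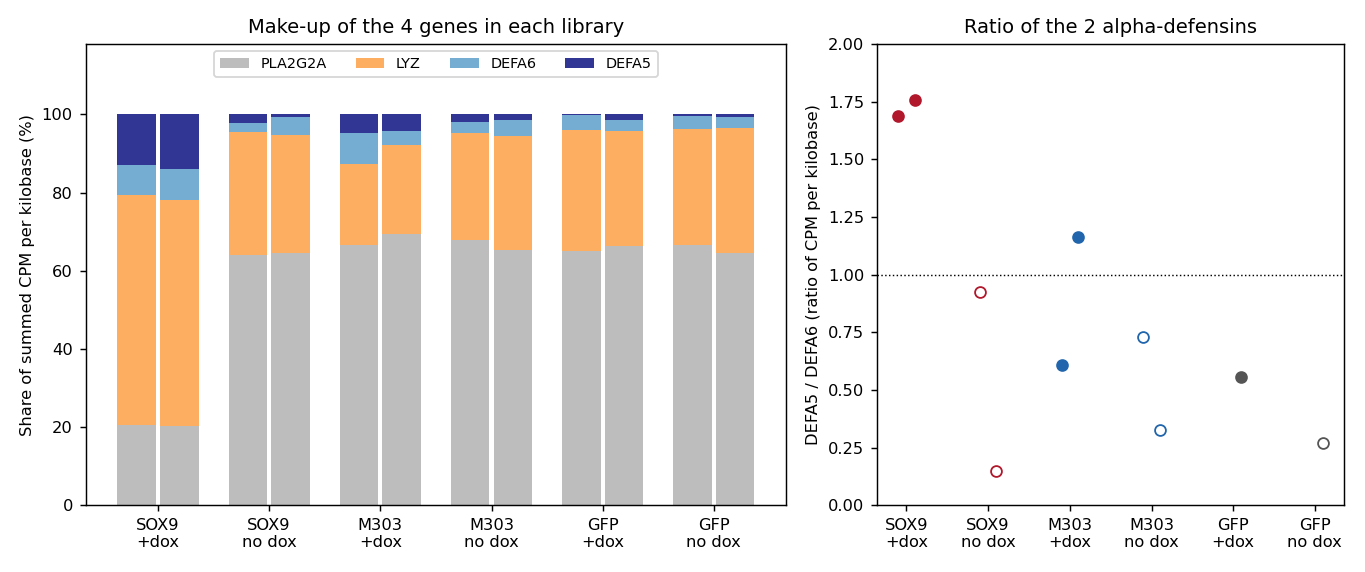
Left, share of the summed CPM per kilobase of PLA2G2A, LYZ, DEFA6 and DEFA5 in each library. Right, DEFA5 over DEFA6 as a ratio of CPM per kilobase, filled points with and open points without doxycycline, for libraries with at least 10 counts of both: LYZ takes 58.7% and 57.7% of the induced SOX9 libraries, and their ratios are 1.69 and 1.76.

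Per kilobase, LYZ ranked 77 of 18219 genes in SOX9 cells with doxycycline, against 1593 in SOX9 cells without. DEFA5 ranked 475 against 10636, DEFA6 959 against 8504 and PLA2G2A 279 against 673. LYZ, DEFA5, DEFA6 and PLA2G2A together took 0.0861% and 0.0850% of the counts in the 2 induced SOX9 libraries, against 0.0136% to 0.0172% in the others.

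Other genes tied to Paneth cells did not move as one with these. The lists that follow were also chosen with earlier results of these data known. For them, the shares over all genes tested were 1.81% called higher and 1.16% lower. Of 9 further Paneth cell products listed, 4 were tested, 0 were called higher and 1 lower, with a median log2 fold change of -0.77 against 0.01 over all genes. The one was SERPINA1, an inhibitor of serine proteases, with 13.3 and 12.9 CPM in SOX9 cells with doxycycline, against 22.3 and 22.4 CPM without (log2 fold change -0.77, adjusted p = 0.00119). The median of the Paneth cell products rests on 4 genes, and the uncalled ones had adjusted p values of 0.174 to 0.924. Among these was a gene with only 2 to 22 counts in a library. Of 20 other antimicrobial genes of epithelia, 10 were tested, 0 were called higher and 2 lower, with a median of 0.02. These were PIGR, the transporter of secretory antibodies, at -0.58 (adjusted p = 4.19e-05), and RETNLB, an antibacterial goblet cell product, at -1.03 (adjusted p = 0.0271). RETNLB lost its call when any 1 of the 4 SOX9 line libraries was left out, with an adjusted p of up to 0.321.

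Of 25 genes listed as close or distant relatives of the 6 (other lysozymes, defensins, secreted phospholipases, REG proteins and intelectins), 11 had 0 counts in every library and 5 were tested. None of the 5 was called higher and 2 were called lower (all genes: 1.81% and 1.16%). REG4, a secreted lectin of goblet and enteroendocrine cells, had a log2 fold change of -1.04 (adjusted p = 6.08e-08), and the phospholipase PLA2G3 one of -0.55 (adjusted p = 0.0333). The call of PLA2G3 was lost without any 1 of 3 SOX9 line libraries (uninduced replicate 2 and both induced ones), with an adjusted p of up to 0.319. Near-identical copies, such as the neutrophil alpha-defensins, lose reads that map to several places, so their 0 is uncertain.

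The 16 regulators and receptors linked to Paneth cells split. Of the 15 tested, 2 were called higher and 3 lower after SOX9 induction (all genes: 1.81% and 1.16%). Their median log2 fold change was -0.19. Besides SOX9, the gene induced, the one called higher was NOD2, an intracellular sensor of bacterial cell wall fragments. It had 3.96 and 3.93 CPM in SOX9 cells with doxycycline, against 0.990 and 0.788 CPM without (log2 fold change 2.14, adjusted p = 0.00311). NOD2 and DLL4 are named after their values were seen, and leaving out uninduced SOX9 replicate 2 ended the NOD2 call (adjusted p = 0.0543). Its response was not called different from that to M303 (difference 1.67, adjusted p = 0.434).

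The 3 called lower were ATOH1, SPDEF and DLL4. ATOH1, the transcription factor that sets the secretory fate, had 15.2 and 14.6 CPM in SOX9 cells with doxycycline, against 33.3 and 37.8 CPM without (log2 fold change -1.25, adjusted p = 5.84e-07). SPDEF, a factor of goblet and Paneth cell maturation, had 8.84 and 9.90 CPM with doxycycline, against 20.1 and 23.3 CPM without (-1.21, adjusted p = 1.72e-05). The Notch ligand DLL4 had a log2 fold change of -0.44 (adjusted p = 0.00984), which was lost without uninduced replicate 2 or induced replicate 2 of the SOX9 line (adjusted p up to 0.200). In M303 induction only SOX9 of these 15 was called, and in GFP induction none was.

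Markers of other cells that could share these products were read beside them. Of 8 goblet cell markers, 6 were called lower and 0 higher after SOX9 induction, with a median log2 fold change of -1.14. Of all genes tested 1.16% were called lower and 1.81% higher, with a median of 0.01. The summed level of the 8 markers was 1011 to 1041 CPM in SOX9 cells with doxycycline and 1978 to 1987 CPM in SOX9 cells without. In the M303 line it was 1644 to 1778 CPM with doxycycline and 2041 to 2114 CPM without. In the GFP line it was 1823 to 1942 CPM with doxycycline and 1859 to 1954 CPM without. In M303 and in GFP induction 0 of the 8 markers were called. AGR2, a protein of the secretory pathway that mucin folding needs, had 633 and 618 CPM in SOX9 cells with doxycycline, against 1156 and 1104 CPM without (log2 fold change -0.85, adjusted p = 1.01e-07). MUC2, the main secreted mucin, had 20.7 and 24.8 CPM in SOX9 cells with doxycycline, against 62.7 and 69.3 CPM without (-1.54, adjusted p = 1.53e-06). REG4, given above, is the goblet marker with the smallest adjusted p. The part of this goblet marker change in the results for the 4 genes was not tested.

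Lysozyme and alpha-defensins are also made by myeloid cells. Of 13 myeloid and neutrophil markers, 9 had fewer than 10 counts in every library, 4 were tested and 0 were called, with a median log2 fold change of 0.35. ELANE and CTSG, which define neutrophil granules, and TYROBP had 0 counts in all 12 libraries. CD14 had 57 to 165 counts and MPO 4 to 22 in every library, and S100A9 had up to 28. Mean CD14 was 2.69 CPM in SOX9 cells with doxycycline and 2.37 CPM in SOX9 cells without. The 13 genes summed to 3.33 to 4.52 CPM in SOX9 cells with doxycycline and 2.53 to 4.23 CPM in SOX9 cells without. Of the 7 epithelial markers 3 were called lower and 0 higher (1.16% and 1.81% of all genes tested), with a median of -0.16. The 3 were the keratin KRT20 (-1.60, adjusted p = 6.26e-05), the intestinal factor CDX2 (-0.46, adjusted p = 0.00418) and villin, VIL1 (-0.28, adjusted p = 0.0446). The CDX2 call was lost without uninduced replicate 2 or induced replicate 1 of the SOX9 line (adjusted p up to 0.111). The VIL1 call was lost without any 1 of the 4 M303 libraries, uninduced SOX9 replicate 2 or either induced SOX9 library (adjusted p up to 0.409).

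**Figure D4:**
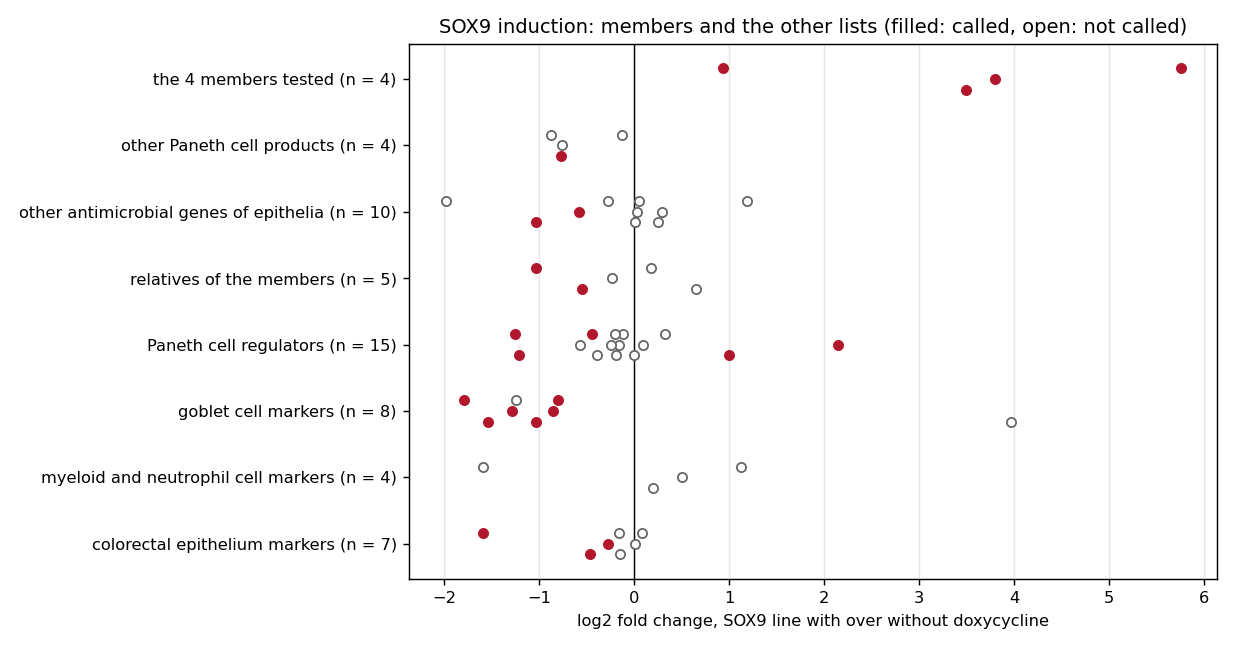
Log2 fold change on SOX9 induction of each tested gene, by list, filled where called. The 4 Paneth cell antimicrobial genes lie at 0.93 to 5.75, while the 6 called goblet cell markers lie below 0. The 4 tested other Paneth cell products also lie below 0, and 1 of them was called. The goblet cell marker CLCA1, not called, lies at 3.96. Among the regulators SOX9 lies at 1.00 and NOD2 at 2.14, both called.

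Genes whose log2 CPM over the 12 libraries ran closest to each of the 4 are given as a description, with r also over the 10 libraries without induced SOX9, since the 2 induced SOX9 libraries stand apart. For LYZ they were IVNS1ABP (Pearson r 0.994), HMGCS1 (0.990), an enzyme of cholesterol synthesis, and CYB5R2 (0.988). Over the 10 libraries these r were 0.58, 0.85 and 0.15. For DEFA6 they were SLC5A1 (0.972), the intestinal glucose transporter, APCDD1 (0.967), an inhibitor of WNT signalling, and PRSS23 (0.967), with 0.74, 0.66 and 0.63 over the 10.

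DEFA5 was most like CYP4X1 (0.984), STMN1 (0.984), a microtubule regulator, and TM4SF1 (0.975), with 0.96, 0.96 and 0.94 over the 10 libraries. PLA2G2A was most like TM4SF1 (0.996), KCNJ2 (0.983), a potassium channel, and SAT1 (0.980), a polyamine enzyme, with 0.97, 0.89 and 0.87 over the 10. Among the 4 genes themselves, DEFA5 and PLA2G2A kept an r of 0.94 over the 10 libraries (0.979 over 12). LYZ and DEFA6 had an r of 0.921 over 12 and -0.53 over the 10, and LYZ and DEFA5 had 0.857 over 12 and -0.14 over the 10. The 10 libraries share lines in pairs of groups, and at these levels DEFA5 rests on 2 to 102 counts.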

How the data were processed

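RNA from 12 LS180 libraries in 6 groups of 2 was sequenced as 150-bp read pairs. The deposited values are raw counts per gene. Alignment used STAR 2.7.0a and hg38, per the submitters' processing notes. Per the file headers, featureCounts 2.0.1 counted them on Ensembl release 101 with no paired-end, strand or multi-mapping option. Mates were thus counted singly, sense and antisense reads cannot be told apart, and reads with several places were left out. The genes that overlap LYZ, REG3A and ITLN2 on the other strand had 0 counts in every library. Symbols matched 42020 of 60671 IDs, and 0 entries named no gene.

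The test was that of edgeR 4.0.16 in R 4.3.3 (filterByExpr, TMM factors 0.981 to 1.02, robust quasi-likelihood F-test, 1 model over 6 groups, 6 residual degrees of freedom, biological coefficient of variation 10.6%). CPM were computed from the deposited counts. The 8 comparisons were 3 inductions, 3 differences between them, and 2 of uninduced lines (SOX9 over GFP, M303 over GFP). Intervals are 95%. The fit was first tested on simulated data. Alternatives were DESeq2 1.42.0, other scalings, no filter, other models, each library left out and halved counts, the last chosen after seeing the data.

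In none of the 6 groups did the 2 libraries match within counting noise; pairs across groups were not checked. The genes and lists were chosen with earlier results of these data known. Named are the 6 genes, SOX9, of each of 7 lists the called members in SOX9 induction (at most the 3 with the smallest adjusted p), and for each tested gene the 3 with the highest Pearson r (log2 CPM, prior count 2, mean of at least 1 CPM). NOD2, DLL4, CLCA1, FCGBP, KRT8 and KRT18 were added after their values were seen.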

Additional observations from a re-analysis of the deposited data

Results flagged for a closer look

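Comparing inductions as interaction terms set apart 6 results, in which the same treatment gave different responses in different lines by edgeR. The response of LYZ was larger to SOX9 than to M303 by 3.82 on the log2 scale (adjusted p = 1.94e-13) and larger than to GFP by 3.48 (adjusted p = 1.12e-12). For DEFA6 the differences were 2.98 against M303 (adjusted p = 0.00403) and 3.62 against GFP (adjusted p = 7.55e-04). For PLA2G2A they were 0.85 against M303 (adjusted p = 8.84e-04) and 0.87 against GFP (adjusted p = 4.15e-04). Both induced SOX9 libraries were above both uninduced ones in all 3 genes, as in 23.2% of all genes tested. The construct cannot be told apart from the line. With 2 libraries a group, no group was tested for a library that stands apart.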

How the results depend on the processing

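The 4 calls of SOX9 induction (LYZ, DEFA5, DEFA6, PLA2G2A) kept direction and threshold in all 19 alternatives run, with log2 fold changes of 3.36 to 3.64, 5.12 to 6.96, 3.46 to 4.23 and 0.84 to 1.03. DEFA5 was called different between SOX9 and M303 induction in 7 of 19 alternatives (adjusted p up to 0.614) and between SOX9 and GFP in 5 of 19 (up to 0.800). The cause of these changes was not tested. DEFA5 had 4 to 38 counts in each uninduced library.

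Without a filter on low counts, M303 induction called 1 of the genes, DEFA5 (1.50, adjusted p = 0.0333). Genes called without the filter were 9 for M303 and 4 for GFP induction, 147 for SOX9 minus M303, 270 for SOX9 minus GFP, 11 for M303 minus GFP, 17 for the uninduced SOX9 line and 22 for the uninduced M303 line, against 1, 0, 89, 163, 1, 0 and 1 with it. DESeq2 called 3 for M303, 2 for GFP, 139 for SOX9 minus M303 and 2 for the uninduced SOX9 line. Fits of only the groups compared called 3 for M303 and 1 for the uninduced SOX9 line.

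Leaving out 1 library moved the 541 calls of SOX9 induction to 231 to 675 (301 without uninduced replicate 2, 270 without induced replicate 1, 231 without induced replicate 2). The main split of 330 higher and 211 lower became 252 and 275 without uninduced replicate 1, and 411 and 361 by DESeq2. The ranges were 1 to 2 for M303, 0 to 9 for GFP, 57 to 107 for SOX9 minus M303, 95 to 229 for SOX9 minus GFP, 1 to 12 for M303 minus GFP, 0 to 39 for the uninduced SOX9 line and 0 to 56 for the uninduced M303 line. Uncalled values that turned sign in this way ranged, in GFP induction, from -0.0667 to 0.102 for LYZ, -1.92 to 1.64 for DEFA5, -0.00595 to 0.382 for DEFA6, -0.0666 to 0.183 for PLA2G2A and -0.0933 to 0.0328 for SOX9. In M303 minus GFP they ranged from -0.14 to 3.42 for DEFA5, -0.16 to 1.12 for DEFA6 and -0.10 to 0.15 for PLA2G2A. In the uninduced SOX9 line DEFA6 ranged from -0.11 to 0.66. CYP4X1 and STMN1 lost their calls in SOX9 induction without uninduced or induced replicate 2, and STMN1 also without induced replicate 1.

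Replicate numbers did not pair the libraries: same-numbered libraries of 2 groups had correlations of deviations from -0.352 to 0.282. With the replicate number as a block, SOX9 induction called 452 genes and the same 4 of the 6, and PLA2G3 (adjusted p = 0.0535) and VIL1 lost their calls.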

Other observations

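CLCA1, a secreted goblet cell protein, was the 1 of the 8 goblet cell markers with a positive fold change in SOX9 induction, and it and FCGBP were picked out after their values were seen. It had 48 and 26 counts in SOX9 cells with doxycycline, against 4 and 0 in SOX9 cells without. In M303 cells it had 8 and 0 counts with doxycycline, against 12 and 4 without, and in GFP cells 0 and 2 with, against 6 and 8 without. Both induced SOX9 libraries were above both uninduced ones, as in 23.2% of all genes tested. The gene was not called (log2 fold change 3.96, edgeR adjusted p = 0.144). FCGBP, a mucus protein of the same list, had 104 ± 29.4 CPM in SOX9 cells with doxycycline and 245 ± 61.1 CPM without (SD, n = 2 each), and was not called either (edgeR adjusted p = 0.0914).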
